A study of Mus musculus with 19 samples.

Results

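Glutathione S-transferases were followed here as 10 genes of 5 cytosolic and mitochondrial classes: Gsta1, Gsta2, Gsta3 and Gsta4 of the Alpha class, Gstm1, Gstm2 and Gstm3 of the Mu class, Gstp1 of the Pi class, Gstt1 of the Theta class and Gstk1 of the Kappa class. They were chosen by name, and every non-control array probe whose RefSeq accession belongs to one of them was taken, which gave 16 probes. The whole array held 55681 non-control probes, of which those with a symbol named 20018 genes. Gstm2 had 3 probes, 4 of the genes had 2 and the other 5 had 1. All 16 probes were well above background in liver and in reference RNA on all 19 arrays, none was saturated, and all were among the 29415 probes tested.

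The livers came from 19 male mice of the transgenic strain named 40.6, 10 weeks old, a strain known as MutaMouse that carries a bacterial lacZ reporter for mutation assays. Treated mice had received DB[a,h]A, the hydrocarbon dibenz[a,h]anthracene of the polycyclic aromatic class, and tissue was taken 3 days after exposure. The groups were 0 mg/kg (5 mice), 6.25 mg/kg (5 mice), 12.5 mg/kg (4 mice) and 25 mg/kg (5 mice), and all of them, controls included, carried the transgene. RNA was from a part of the liver of each mouse, 200 ng per labelling, so that a smaller number of cells of a type and less RNA per cell cannot be told apart. On each array the red dye carried the liver sample, the green dye carried a commercial standard made of RNA of several mouse cell lines, and no dye was swapped. Below, that standard is called the reference. Every value below is the log2 ratio of liver over reference for a probe, a difference between doses is a difference of such ratios, and a ratio is not comparable between genes.

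Glutathione transferases join glutathione to reactive electrophiles, and in the liver they take part in the removal of the diol epoxides and quinones that cytochrome P450 enzymes form from polycyclic aromatic hydrocarbons. Several Alpha and Mu class genes are known targets of the transcription factor Nrf2 through antioxidant response elements, and rodent Alpha class genes are also known targets of the aryl hydrocarbon receptor through xenobiotic response elements. In mice the Pi class gene Gstp1 is expressed more highly in male than in female liver.

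The proximal promoters of Gstp1, Gsta1, Gsta2 and Gsta3, the 4 genes with the smallest p in the F test over doses, are shown. Each holds the short core of 1 of those elements, as does Gstm1, which is not shown. RefSeq promoter entries of build GRCm38.p6, 250 bases before to 50 bases after the annotated start, were found for 9 of the 10 genes. Capitals mark GCGTG, the core of the xenobiotic response element, or TGACNNNGC, the core of the antioxidant response element, each searched on both strands. The windows are Gstp1 at chr19:4037863-4038162 (minus strand), Gsta1 at chr9:78230419-78230718 (plus strand), Gsta2 at chr9:78347096-78347395 (minus strand) and Gsta3 at chr1:21240335-21240634 (plus strand).
Gstp1: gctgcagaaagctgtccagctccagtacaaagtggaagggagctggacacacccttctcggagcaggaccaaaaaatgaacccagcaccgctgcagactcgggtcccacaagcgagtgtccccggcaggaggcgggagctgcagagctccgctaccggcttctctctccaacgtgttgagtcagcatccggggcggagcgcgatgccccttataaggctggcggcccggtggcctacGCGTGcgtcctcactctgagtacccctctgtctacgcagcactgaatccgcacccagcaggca
Gsta1: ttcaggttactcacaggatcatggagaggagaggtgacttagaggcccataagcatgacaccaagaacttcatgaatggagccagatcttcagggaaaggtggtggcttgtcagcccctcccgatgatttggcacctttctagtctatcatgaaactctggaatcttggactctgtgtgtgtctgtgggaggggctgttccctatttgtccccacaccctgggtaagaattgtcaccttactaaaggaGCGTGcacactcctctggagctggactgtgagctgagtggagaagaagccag
Gsta2: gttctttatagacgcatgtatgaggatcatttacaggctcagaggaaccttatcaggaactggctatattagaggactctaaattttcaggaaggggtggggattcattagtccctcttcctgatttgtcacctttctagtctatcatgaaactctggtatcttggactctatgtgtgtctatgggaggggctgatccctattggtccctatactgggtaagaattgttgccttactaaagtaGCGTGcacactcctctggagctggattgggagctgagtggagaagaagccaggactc
Gsta3: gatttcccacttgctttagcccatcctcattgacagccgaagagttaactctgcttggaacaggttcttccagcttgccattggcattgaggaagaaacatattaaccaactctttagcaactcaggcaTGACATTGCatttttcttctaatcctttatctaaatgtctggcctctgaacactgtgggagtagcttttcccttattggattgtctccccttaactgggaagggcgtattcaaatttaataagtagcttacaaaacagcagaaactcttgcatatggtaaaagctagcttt
GCGTG began 13 bases before the start of Gstp1, 2 bases before that of Gsta1 and 7 bases before that of Gsta2. The Gsta1 and Gsta2 windows aligned with 75.3% identical positions, the highest identity between any pair of the 9 genes. GCGTG was present for 4 of the 9 genes, these 3 and Gstm1. Over all promoters it was present for 9500 of 27025 genes, and in 32.4% of the 32851 windows. TGACNNNGC was present only in Gsta3 among the 9 genes, 121 bases before its start. Over all promoters it was present for 3781 of 27025 genes, and in 12.4% of windows. Such a match describes letters in a window and not a bound site. No other form of either element was searched, so a window without a match may still hold one.

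The 19 arrays lay on 3 slides, of which slide 1 was scanned 7 days later. All 4 doses were present on each slide, so that slide could also be fitted as a block. Transferase comparisons are given without a slide term, and many also with the block. From 0 to 25 mg/kg, the groups had 2, 1, 1 and 1 livers on slide 1 and 1, 2, 1 and 2 on slide 3. Slide 2 held 2 livers of each dose. A difference within slide 1 or slide 3 can thus rest on 1 liver of a dose. Between 35.5% and 56.7% of probes were well above background in liver RNA, and 12.5 mg/kg was lowest with 39.8 ± 5.01%, against 47.0 ± 7.90% at 0 mg/kg (SD, n = 4 and 5). On slide 1 the 12.5 mg/kg animal had 38.3%, while the other 4 arrays of that slide had 52.4 to 56.7%. All 9 hepatocyte markers were well above background on all 19 arrays, and their mean log2 ratio was 7.85 ± 0.59 at 25 mg/kg and 7.85 ± 0.75 at 12.5 mg/kg, against 8.10 ± 0.76 at 0 mg/kg. The tissue label was met by these markers. Of 5 bile duct markers, 3 were kept by the filter, Krt19, Krt7 and Spp1, while Epcam and Cftr were not.

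At 25 mg/kg against 0 mg/kg, Gstp1 was the transferase furthest from control, with about the same difference on its 2 probes, followed by Gsta1 at -0.52, while the other 8 genes lay between -0.23 and 0.29. In the limma fit, 17 of 29415 probes (0.0578%) passed an adjusted p of 0.05, and none of the 16 transferase probes did. With slide as a block, 238 probes (0.809%) passed, and 1 of the 16 did, the dimmer probe of Gstp1. At an unadjusted p under 0.05, where 7.37% of all probes stood, 2 of the 16 were counted, and these were the 2 Gstp1 probes. They were also the only 2 of the 16 whose 25 mg/kg and control values did not overlap, as was so for 1.75% of all probes.

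Gstp1, which encodes the Pi class enzyme that conjugates diol epoxides, had log2 ratios on its brighter probe of 3.61, 4.12, 4.14, 4.35 and 4.42 in the 0 mg/kg livers. They were 3.34, 3.46, 3.51, 4.02 and 4.10 at 6.25 mg/kg, 3.77, 3.81, 4.01 and 4.24 at 12.5 mg/kg, and 3.18, 3.34, 3.45, 3.50 and 3.57 at 25 mg/kg. The highest 25 mg/kg liver was thus just below the lowest control liver, while both lower doses overlapped the controls. The means were 3.41 ± 0.15 at 25 mg/kg and 4.13 ± 0.32 at 0 mg/kg (SD, n = 5 each), a difference of -0.72 ± 0.17 (SE), 1.64-fold lower. All 5 treated livers were below the control mean. The limma adjusted p was 0.126, and 0.0551 with slide as a block, where the difference was -0.71. In the green dye, the Gstp1 log2 reference signal was 13.9 ± 0.57 at 25 mg/kg and 14.1 ± 0.82 at 0 mg/kg, and from the liver dye alone the difference was -0.63 (limma adjusted p = 0.0999).

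The second Gstp1 probe gave 3.05, 3.19, 3.37, 3.41 and 3.98 in the 25 mg/kg livers, against 4.00, 4.02, 4.12, 4.33 and 4.92 in the 0 mg/kg livers. Its groups were separated by the narrow gap between 3.98 and 4.00, and the 3.98 came from slide 1, which held the highest liver of every dose on this probe. The difference was -0.88 ± 0.23 without a slide term (limma adjusted p = 0.204). With slide as a block this probe fell by 0.75 (limma adjusted p = 0.0366). Within slides 1, 2 and 3 the difference was -0.55, -0.90 and -0.77, and on the brighter probe it was -0.48, -0.88 and -0.74. The sign was therefore the same on each slide and on each probe, with 1 liver at 25 mg/kg on slide 1 and 1 control on slide 3.

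The block fit was repeated with each array left out. The second probe passed in 10 of the 19 fits, with adjusted p from 0.0189 to 0.111 and differences from -0.87 to -0.67. The call was lost on leaving out any of the 25 mg/kg animals or any control except animal 20. Animal 20 had the lowest control value on the brighter probe, and without that animal the block difference was -0.83 on the brighter probe (limma adjusted p = 0.0293) and -0.87 on the second (limma adjusted p = 0.0189). The brighter probe passed in 4 of the 19 block fits.

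**Figure D1:**
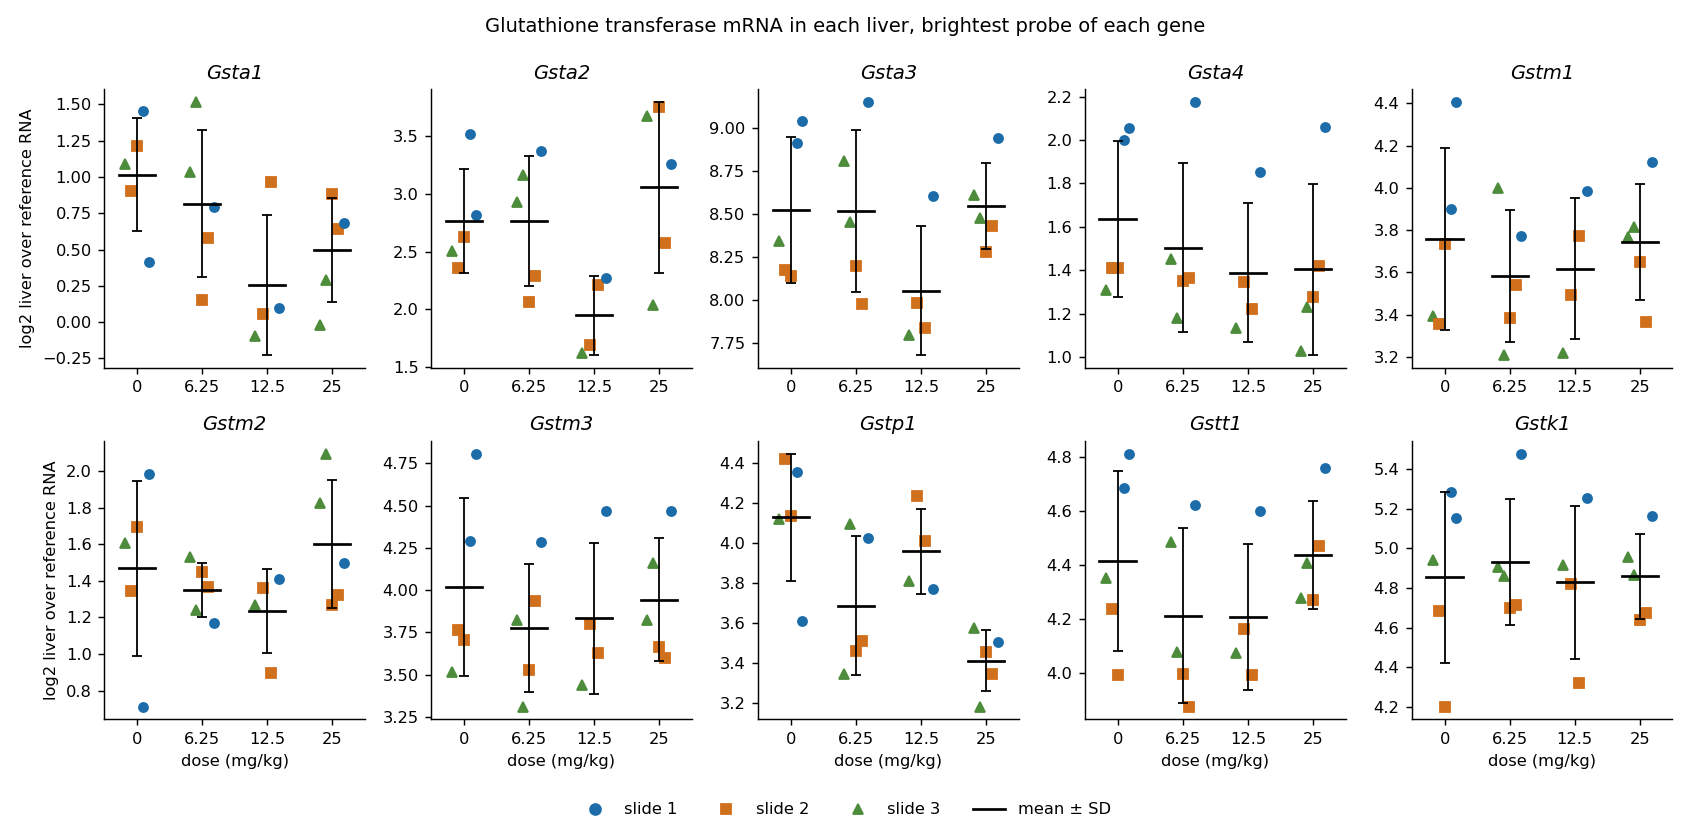
Log2 ratio of liver over reference RNA (vertical axis, scale of each panel its own) for the brightest probe of each of the 10 genes against dose in mg/kg. Each point is a liver, its shape and colour the slide, and bars are the mean ± SD; for Gstp1 the 5 livers at 25 mg/kg, 3.18 to 3.57, lie below the 5 at 0 mg/kg, 3.61 to 4.42.

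Gstp2, a near-identical neighbour of Gstp1 that is not among the 10 genes, had the pattern most like that of Gstp1 among 13536 genes. Their Pearson r over the 19 livers was 0.96 after the slide means were removed, on probes that may share transcripts. The next most alike were 4930432K21Rik, with r = 0.92, and Napsa, a protease gene, with r = 0.85. The brighter Gstp2 probe had 3.34, 3.40, 3.52, 3.85 and 4.29 at 25 mg/kg, against 4.36, 4.38, 4.47, 4.63 and 5.18 at 0 mg/kg, with no overlap. Its difference was -0.92 ± 0.24 (limma adjusted p = 0.204), and with slide as a block it fell by 0.81 (limma adjusted p = 0.0421). Its second probe differed by -0.79 (limma adjusted p = 0.116) and by -0.74 with the block (limma adjusted p = 0.0537). Gstp3, the third Pi class gene, stood at 0.44 ± 0.29 (limma adjusted p = 0.824), with a value below 0 on slide 1 and above 0 on the other slides. Without probe sequences, the share of Gstp1 signal that came from Gstp2 transcripts was not tested.

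**Figure D2:**
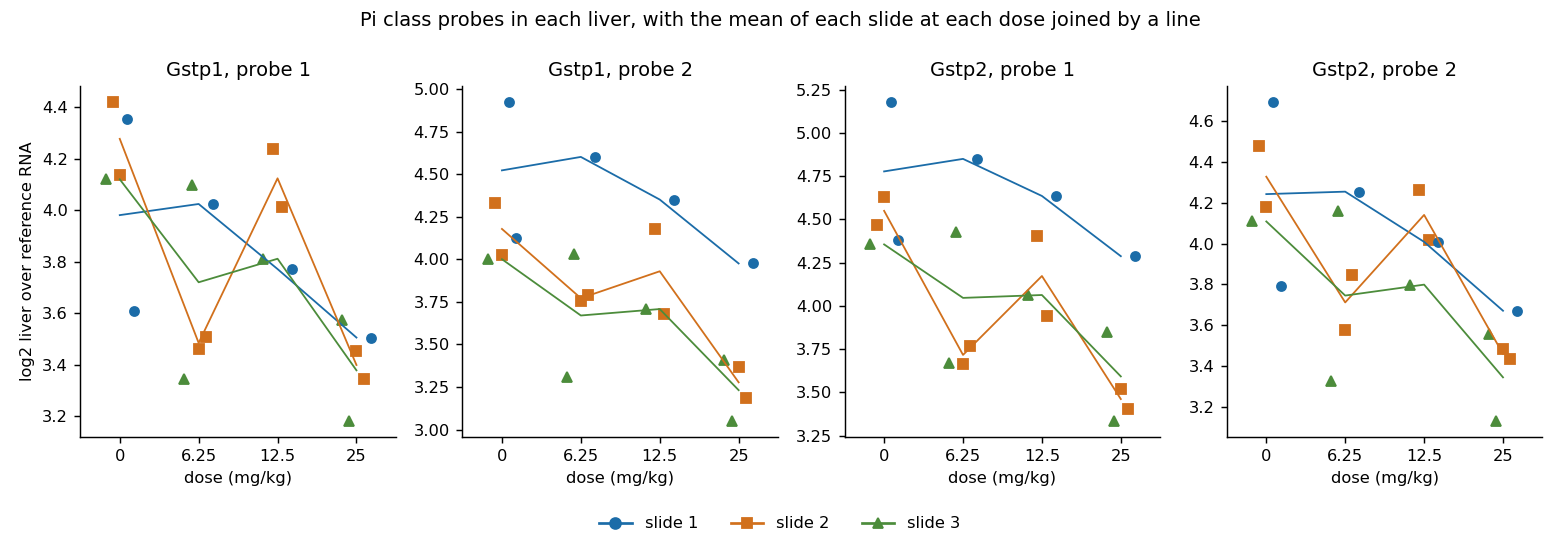
Log2 ratio of liver over reference RNA (vertical axis) against dose in mg/kg for the 2 probes of Gstp1 and the 2 of Gstp2. Points are livers, shapes and colours are slides, and lines join the mean of each slide; on every slide and probe the 25 mg/kg mean is below the 0 mg/kg mean, by 0.48 to 0.90 for Gstp1.

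The other doses did not order the Gstp1 difference by dose. On the brighter probe it was -0.44 ± 0.17 at 6.25 mg/kg (limma adjusted p = 0.875) and -0.17 ± 0.18 at 12.5 mg/kg (limma adjusted p = 0.999). With the block these were -0.44 (limma adjusted p = 0.328) and -0.17 (limma adjusted p = 0.809). The second probe gave -0.38 ± 0.23 and -0.30 ± 0.25 in the same dose order. Within slides 1, 2 and 3 the 6.25 mg/kg difference of the brighter probe was 0.04, -0.79 and -0.40, so that the sign differed on slide 1. The slope over dose was -0.024 per mg/kg on the brighter probe (limma adjusted p = 0.353) and -0.033 on the second (limma adjusted p = 0.266). With slide as a block, the slopes were -0.024 (limma adjusted p = 0.175) and -0.028 (limma adjusted p = 0.0536). Over all probes, 6 (0.0204%) passed the trend test, 71 (0.241%) with the slide block, and no transferase probe passed either. The 25 mg/kg livers against the 6.25 mg/kg livers gave -0.27 ± 0.17 on the brighter probe and -0.50 ± 0.23 on the second. With the block the second probe gave -0.50 ± 0.16 (limma adjusted p = 0.827). No probe of any gene passed in that comparison, with 0% called with or without the block.

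At 12.5 mg/kg against 0 mg/kg, the Alpha class genes Gsta1, Gsta2 and Gsta3 were furthest from control, all on the low side. No probe of any gene passed in limma (0%), and 2 probes (0.0068%) passed with the slide block, neither of them a transferase. At an unadjusted p under 0.05 stood 2 of the 16, Gsta1 and Gsta2, against 4.21% of all probes. The values of 1 of the 16, Gsta2, did not overlap between the groups, against 1.46% of all probes.

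Gsta1, an Alpha class enzyme that conjugates hydrocarbon diol epoxides, had ratios of 0.42, 0.90, 1.09, 1.21 and 1.45 at 0 mg/kg. They were 0.16, 0.58, 0.80, 1.03 and 1.52 at 6.25 mg/kg, -0.10, 0.06, 0.10 and 0.97 at 12.5 mg/kg, and -0.02, 0.29, 0.64, 0.68 and 0.88 at 25 mg/kg. Of the 4 livers at 12.5 mg/kg, 3 were below every control and the fourth was among the controls. The difference at 12.5 mg/kg was -0.76 ± 0.27 (limma adjusted p = 0.999), and -0.77 with the block (limma adjusted p = 0.396). It was -0.84, -0.54 and -1.19 within slides 1, 2 and 3, and on slide 3 it rested on 1 liver of each of these doses. At 25 mg/kg it was -0.52 ± 0.25 (limma adjusted p = 0.688), with a 95% confidence interval of -1.05 to 0.01, and all 5 livers were below the control mean.

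Gsta2, the close relative of Gsta1 whose probe may also take up Gsta1 transcripts (not tested), had 2.36, 2.50, 2.62, 2.81 and 3.52 at 0 mg/kg. The ratios were 2.07, 2.28, 2.93, 3.16 and 3.37 at 6.25 mg/kg, 1.62, 1.69, 2.21 and 2.27 at 12.5 mg/kg, and 2.03, 2.57, 3.26, 3.67 and 3.75 at 25 mg/kg. The 12.5 mg/kg livers were all below the lowest control, while the 25 mg/kg livers spread on both sides of the controls. The 12.5 mg/kg difference was -0.82 ± 0.34 (limma adjusted p = 0.999), 1.76-fold lower, and -0.73 with the block (limma adjusted p = 0.45). At 25 mg/kg the difference was 0.29 ± 0.32 (limma adjusted p = 0.883), of the other sign, with a 95% interval of -0.38 to 0.96.

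Gsta3, the Alpha class enzyme known in mice for detoxifying aflatoxin epoxide, was 367-fold above the reference in control liver on its brighter probe. On its second probe it was 170-fold above. The ratios of the brighter probe were 8.14, 8.17, 8.34, 8.91 and 9.04 at 0 mg/kg and 7.98, 8.20, 8.45, 8.81 and 9.15 at 6.25 mg/kg. They were 7.80, 7.83, 7.98 and 8.60 at 12.5 mg/kg and 8.28, 8.43, 8.48, 8.61 and 8.94 at 25 mg/kg. Slide 1 held the highest liver of every dose. At 12.5 mg/kg the difference was -0.47 ± 0.24 (limma adjusted p = 0.999), and -0.36 ± 0.11 with the block (limma adjusted p = 0.311). Its second probe gave -0.30 ± 0.23 and -0.20 ± 0.10 with the block. A fit without the 12.5 mg/kg animal on slide 1, the animal with few probes above background for its slide, had no slide term. Its 12.5 mg/kg differences were -0.71 for Gsta1, -0.92 for Gsta2 and -0.65 for Gsta3 (limma adjusted p = 0.68 for each). That fit held no 12.5 mg/kg liver of slide 1, while the slide 1 controls stayed in. Within slides 2 and 3 the Gsta3 difference at 12.5 mg/kg was -0.25 and -0.54 on the brighter probe.

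**Figure D3:**
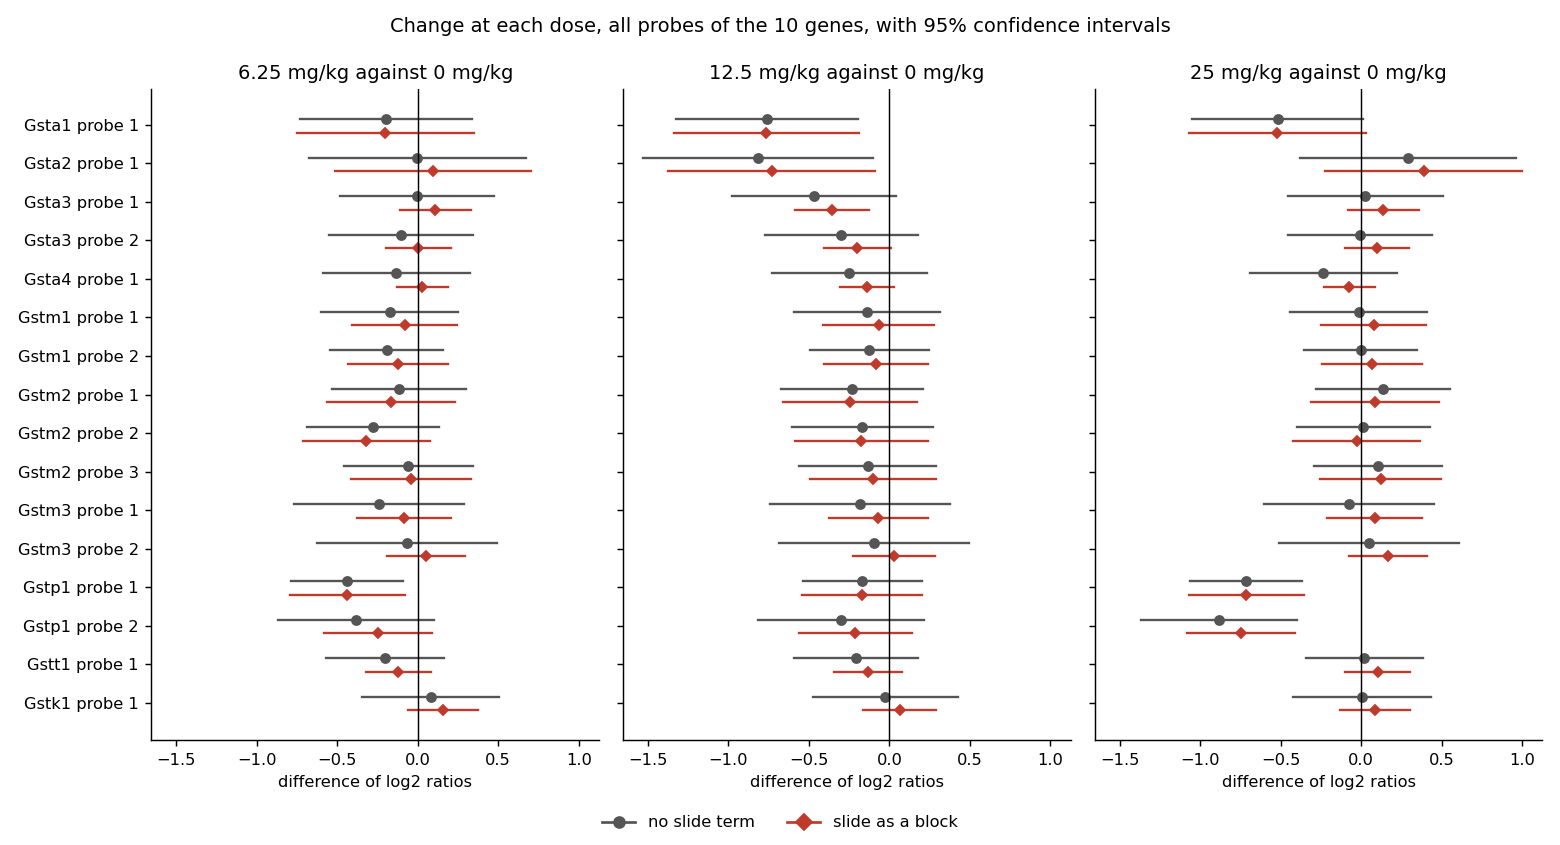
Difference of log2 ratios from 0 mg/kg (horizontal axis) for all 16 probes at each dose, with 95% confidence intervals, from the fit without a slide term (circles) and with slide as a block (diamonds). The Gstp1 intervals at 25 mg/kg, -1.06 to -0.37 and -1.37 to -0.40 without a slide term, exclude 0. So do those of Gsta1 and Gsta2 at 12.5 mg/kg and of the brighter Gstp1 probe at 6.25 mg/kg. With slide as a block, that of the brighter Gsta3 probe at 12.5 mg/kg, -0.59 to -0.13, also excludes 0. The intervals are not adjusted for the number of probes.

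Gsta4, the Alpha class enzyme for hydroxynonenal from lipid peroxidation, had 10 spots per array. Its mean was 1.40 ± 0.39 at 25 mg/kg and 1.64 ± 0.36 at 0 mg/kg (SD, n = 5 each), a difference of -0.23 ± 0.22 that was -0.07 with the block. Slide accounted for 91.1% of its variance over the 19 livers. At the lower doses its differences were -0.13 and -0.25, with 6.25 mg/kg given first, and its block interval at 25 mg/kg ran from -0.23 to 0.09.

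The Mu class genes Gstm1, Gstm2 and Gstm3, whose enzymes conjugate a broad range of aryl and alkyl electrophiles, lay between -0.07 and 0.13 of control at 25 mg/kg on all 7 probes. The differences of their brightest probes at that dose were -0.01 for Gstm1, 0.13 for Gstm2 and -0.07 for Gstm3. At 6.25 mg/kg they were -0.18, -0.12 and -0.24 in the same gene order, and at 12.5 mg/kg -0.14, -0.23 and -0.18. Each 95% interval of these 3 probes at 25 mg/kg included 0, and the widest, that of Gstm3, ran from -0.60 to 0.46. With slide as a block, the intervals were -0.25 to 0.41 for Gstm1, -0.31 to 0.48 for Gstm2 and -0.21 to 0.38 for Gstm3. Control animal 17 had the lowest Gstm2 ratio of all 19 livers, 0.71, while the other controls had 1.35 to 1.98.

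Gstt1 of the Theta class, which conjugates small halogenated compounds, averaged 4.44 ± 0.20 at 25 mg/kg and 4.42 ± 0.33 at 0 mg/kg (SD, n = 5 each). Its difference of 0.02 ± 0.17 had a 95% interval of -0.34 to 0.39. Gstk1 of the Kappa class, a mitochondrial and peroxisomal enzyme, averaged 4.86 ± 0.21 and 4.85 ± 0.43 in the same groups, a difference of 0.01 ± 0.20 with an interval of -0.42 to 0.43. With slide as a block, the intervals were -0.10 to 0.31 for Gstt1 and -0.13 to 0.30 for Gstk1.

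Across the 10 genes, 5 were higher and 5 lower at 25 mg/kg, with a median difference of -0.0042 against -0.0076 over 13812 genes; with the slide block 7 were higher and 3 lower, with a median of 0.08. At 12.5 mg/kg all 10 were lower, with a median of -0.22 against -0.02 over all genes; with the slide block 9 were lower and the median was -0.16. At 6.25 mg/kg 9 were lower, with a median of -0.15 against 0.0032 over all genes, and 6 with the block. These comparisons share the control livers. The 9 hepatocyte markers were also all lower than control at each of the 3 doses, with medians of -0.31, -0.26 and -0.25 from the lowest dose to the highest. With the slide block these medians were -0.14, -0.10 and -0.07, and not all 9 markers were lower. Their part in the transferase values was not tested. At 6.25 mg/kg 1 of the 16 probes, that of Gstp1, stood at an unadjusted p under 0.05, against 5.57% of all probes. None of the 16 had groups that did not overlap, against 0.969%. No probe of any gene passed at that dose, with 0% called with or without the block.

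For each of the 10 genes, the values of all 3 pairs of neighbouring doses in the order of their means overlapped. In the F test over the 3 doses 3 probes (0.0102%) passed, and 22 (0.0748%) with the block, none of them a transferase. The smallest unadjusted F test p among the 10 genes belonged to Gstp1, then Gsta2, Gsta1 and Gsta3, and the limma adjusted p of Gstp1 was 0.562. Slide accounted for 66.4% or more of the variance of the brightest probes of Gsta3, Gsta4, Gstk1, Gstm3 and Gstt1, and for 3.49% of that of Gstp1 and 0.198% of that of Gsta1. On the second Gstp1 probe slide accounted for 44.3%.

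After the slide means were removed, the Mu genes varied together over the 19 livers, with r = 0.75 between Gstm1 and Gstm3 and 0.73 between Gstm2 and Gstm3. The Alpha genes Gsta2 and Gsta3 gave 0.64, and Gsta3 and Gstt1 0.63. Gstp1 ran the other way from the Mu genes, at -0.455 with Gstm1, -0.460 with Gstm3 and -0.467 with Gstm2. This was not confined to the Mu class, as Gstp1 gave -0.33 with Gsta3 and with Gstt1. Among the 10 genes it was above 0 only with Gsta1, at 0.41. Over all 45 pairs the median was 0.13 and 27 were above 0; the livers share dose groups and reference RNA. Probes of the same gene gave r from 0.57 for Gstm3 to 0.94 for Gstm2, so that the 2 Gstm3 probes were the least alike. The genes most like Gsta2 outside the 10 were Mrpl47, a mitochondrial ribosomal protein gene (r = 0.82), Fam3a (r = 0.77) and 6330549D23Rik (r = 0.75). For Gsta1 they were Invs, which encodes the ciliary protein inversin (r = 0.85), Gm10639 (r = 0.85) and Cstf3, a cleavage factor gene (r = 0.85).

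**Figure D4:**
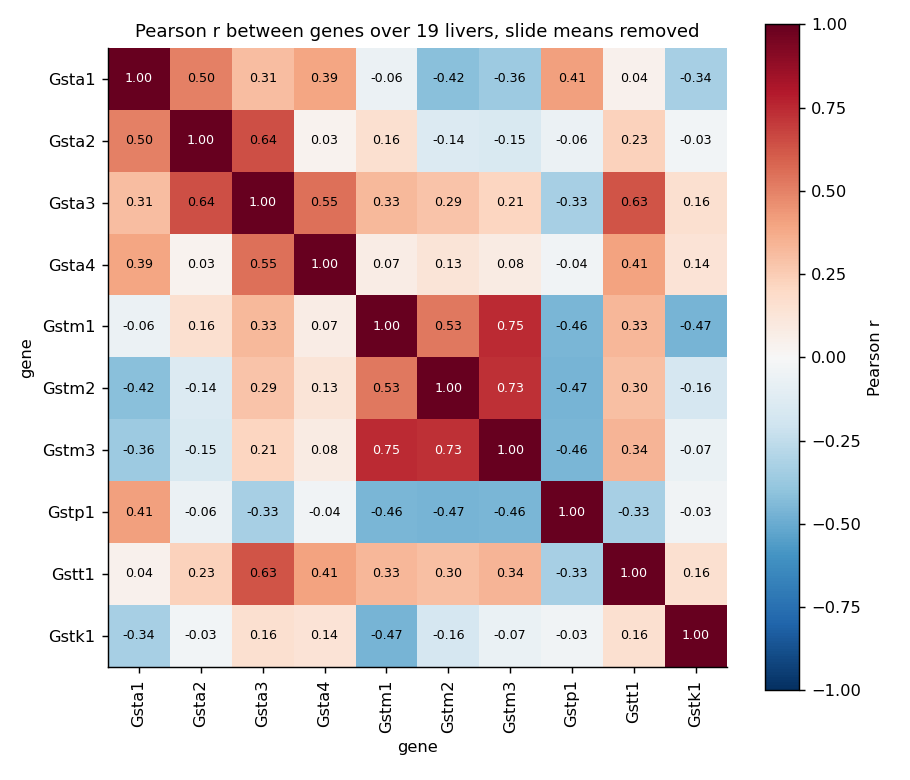
Pearson r between the brightest probes of the 10 genes over 19 livers after the mean of each slide was removed, with gene names on both axes and colour from -1 (blue) to 1 (red). Gstm1 and Gstm3 have the highest value, 0.75, and Gstp1 is below 0 with all 3 Mu genes.

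No gene of the other glutathione lists passed at 25 mg/kg without the slide block, where 0.0578% of all probes passed. With the block 1 passed, Gstp2, where 0.809% of all probes passed. Among 18 other transferases 16 were kept by the filter, 8 higher and 8 lower, with a median of 0.01; Gstt3, a Theta class gene, stood at 0.54 ± 0.19 (limma adjusted p = 0.446) and Gsto1, an Omega class gene, at 0.13. Of 9 genes of glutathione synthesis 8 were kept and 6 were lower. Gclc, the catalytic subunit of the rate-limiting ligase, stood at -0.45 ± 0.20 (limma adjusted p = 0.633), and Cbs, Cth and Gss stood between -0.32 and -0.12.

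All 19 genes of glutathione redox cycling were kept, 10 higher and 9 lower. Glo1, the glyoxalase that uses glutathione to clear methylglyoxal, stood at -0.31 ± 0.10 (limma adjusted p = 0.374), Hagh, the next enzyme of that route, at -0.13, and the glutaredoxin genes Glrx2 and Glrx5 at 0.25 and 0.19. Of 16 genes that break down glutathione conjugates 13 were kept, 6 higher and 7 lower, with Ggct at -0.32, Lap3 at -0.20, Cndp2 at -0.19 and Ggt7 at 0.18.

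All 11 regulators were kept, and 8 were higher at 25 mg/kg, with a median of 0.18, or 0.32 with the block. Maff, a small Maf partner of Nrf2, stood at 0.80 ± 0.25 (limma adjusted p = 0.326), and Nfe2l2, the gene of Nrf2 itself, at 0.54 ± 0.21 (limma adjusted p = 0.497). Arnt, the partner of the aryl hydrocarbon receptor, stood at 0.48, and Bach1, a repressor at antioxidant response elements, at 0.50. The 3 lower regulators were Nfe2l1 at -0.32, Ahr, the gene of the aryl hydrocarbon receptor, at -0.21 and Keap1 at -0.21. None of the 11 passed with or without the block, against 0.809% and 0.0578% of all probes.

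**Figure D5:**
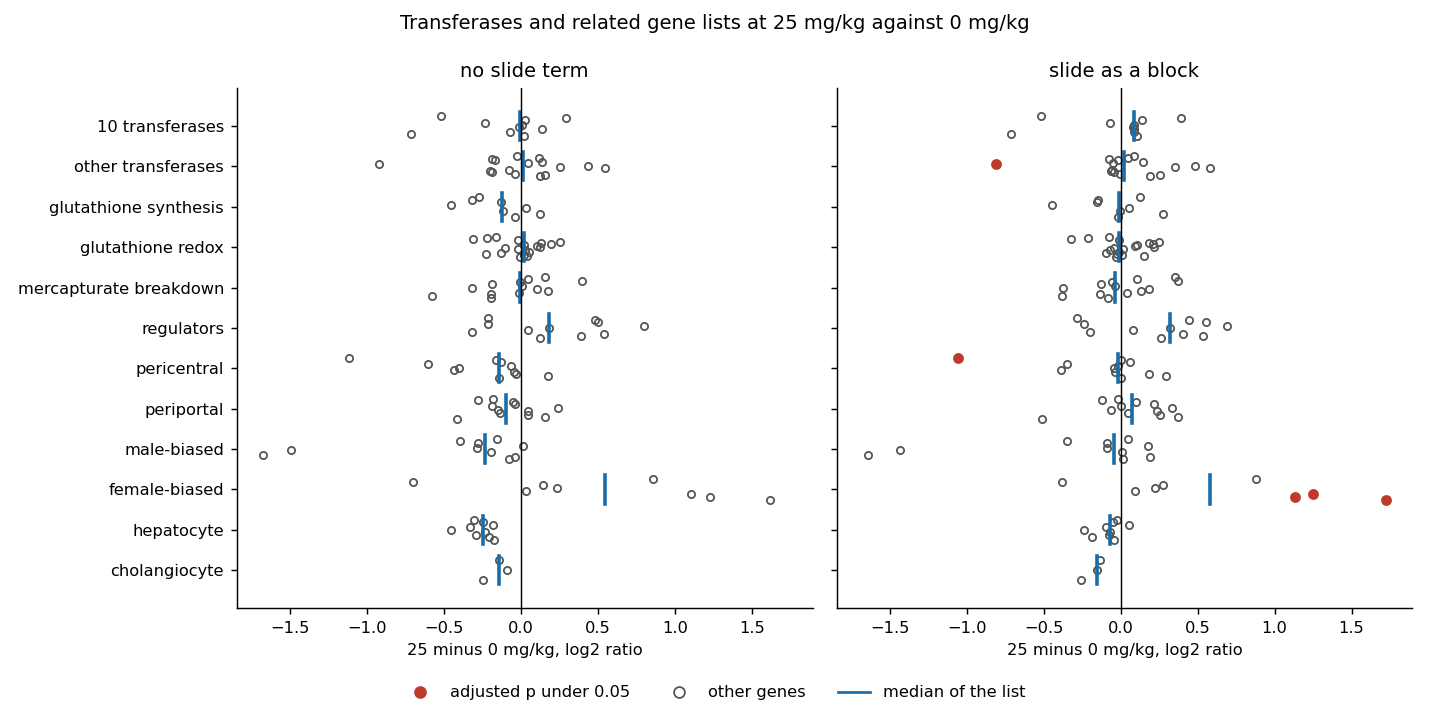
Difference of log2 ratios at 25 mg/kg from 0 mg/kg (horizontal axis) for each gene of the 10 transferases and of related lists (rows), without a slide term on the left and with slide as a block on the right. Filled points passed an adjusted p of 0.05, blue bars are the median of each list, and the filled points of the right panel include Gstp2, Avpr1a, Fmo2 and Slc16a5.

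Genes known to differ between male and female mouse liver, and genes that mark liver zones, are given beside the Gstp1 value at 25 mg/kg. Of 10 male-biased genes kept, 9 were lower, with a median of -0.24, or -0.04 with the block; Elovl3, a fatty acid elongase gene, stood at -1.49 ± 0.43 (limma adjusted p = 0.268), Moxd1 at -1.68, Cyp2u1 at -0.40 and Cyp7b1 at -0.28. Of 8 female-biased genes kept, 7 were higher, with a median of 0.55. With slide as a block, those that rose included Fmo2, a flavin monooxygenase gene (1.25, limma adjusted p = 0.015), and the transporter gene Slc16a5 (1.73, limma adjusted p = 0.0127). Acot3 stood at 0.86.

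The mean log2 ratio over the male-biased list ranged from 5.53 to 6.62 in the 25 mg/kg livers and from 5.73 to 7.16 in the 0 mg/kg livers, and over the female-biased list from 1.52 to 2.06 and from 0.99 to 1.46 in the same groups. Only the female-biased ranges were apart. Between these doses 1.75% of single probes did not overlap, and the share for means of gene lists was not computed. The lists were chosen with earlier results of these data known. Of 11 pericentral genes kept 10 were lower, with a median of -0.14, or -0.02 with the block. Avpr1a, the vasopressin receptor gene, stood at -1.12 (limma adjusted p = 0.109) and fell by 1.06 with the block (limma adjusted p = 0.0421). Without the block Cyp2e1, Lgr5 and Lect2 stood at -0.61, -0.44 and -0.41, and with it at -0.35, -0.39 and -0.05. The 12 periportal genes, all kept, had a median of -0.10, or 0.07 with the block, and 8 were lower without it, Sox9 at -0.42, Arg1 at -0.28 and Hal at -0.15, with Gls2 at 0.24. The 3 bile duct markers that were kept, Krt19, Krt7 and Spp1, stood at -0.14, -0.09 and -0.25. The part of any of these lists in the Gstp1 value was not tested.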

How the data were processed

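Scanner output of 19 Agilent mouse arrays was used, 1 liver per array. The intensity values, median brightness of each spot and of its background in each dye, were deposited by the authors unnormalized and per the file headers the scanner images were read by Feature Extraction 10.7.3.1. A deposited table of the authors' processed log2 ratios was used only as an alternative; its scale and direction were checked against log2 ratios of the scanner signals with no background subtraction (r = 0.993 to 0.996 per array, column medians -0.04 to -0.02), and its centring is not given in the sources used here.

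Background was corrected with normexp (offset 50) and dyes with loess within each array, control spots at weight 0. Outlier spots (0.623%) were left out and spots of a probe averaged. Probes well above background in liver on at least 4 arrays were kept. Group means over all 19 arrays were fitted with limma 3.58.1 in R 4.3.3 (lmFit, eBayes, with Benjamini-Hochberg adjustment over 29415 probes). Slide as a fixed block was the alternative, and it is given beside many of the results but not beside all. The fit was tested on simulated data. A probe's accession was named through a RefSeq table, which matched 47.4% of probes, and a gene was represented by its brightest probe kept. Values in each animal are given for the 4 genes of smallest F test p and for any gene that passed; of each gene list up to 4 genes of smallest p at 25 mg/kg are named, and for 3 genes the 3 most correlated outside genes. 1 list gene that this rule would name is not reported here. The 10 genes and the lists were chosen with earlier results of these data known. No depth applies to arrays, and the number of arrays limits the precision. Other settings were background correction, normalization, filter, array weights, prior, the 2 groups alone and each array left out.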

Additional observations from a re-analysis of the deposited data

Results flagged for a closer look

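In 3 of 64 groups of values (16 probes at 4 doses), a liver stood apart from the rest of its dose group by the Dixon criterion; chance alone marks about 1 in 20 groups. Of these, 2 belonged to the same liver, the 6.25 mg/kg animal 18 on slide 1. Its Gsta4 ratio was 2.17, while the other 4 livers of the group had 1.18 to 1.45. Its Gstk1 ratio was 5.48, while the others had 4.70 to 4.91. That animal was the only 6.25 mg/kg liver on slide 1, and the slide 1 means over all doses were 2.03 for Gsta4 and 5.27 for Gstk1, the highest of the 3 slides. The third value was that of the dimmest Gstm2 probe in the 6.25 mg/kg animal 8 on slide 3, at 1.19, while the others had 1.44 to 1.53.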

How the results depend on the processing

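No transferase probe passed in any of the 6 comparisons without the slide block except under array weights, where 2 of the 16 passed at 25 mg/kg, the brighter Gstp1 probe among them (-0.77, limma adjusted p = 0.0408). The block gave 1. The Gstp1 difference at 25 mg/kg kept its sign in 14 alternatives, from -0.88 (the second probe, a setting chosen after seeing the data) to -0.63, with adjusted p from 0.0408 to 0.391, and on leaving out each array from -0.85 to -0.64. The Gsta1 and Gsta2 differences at 12.5 mg/kg also kept their sign, from -0.90 to -0.76 and from -0.99 to -0.40. Counts over all probes moved more. At 25 mg/kg, 17 became 238 with the slide block, 134 with array weights, 91 from the liver channel alone, 48 with the 2 groups alone, 33 with a trended and robust prior and 10 with no filter. On leaving out each array it ranged from 0 (without 25 mg/kg animal 4) to 67 (without 6.25 mg/kg animal 18), and it moved by over 1.5 times for 14 of the 19, all except animals 10, 11, 13, 14 and 15. At 12.5 mg/kg, 0 became 2 with the block, 2 from the liver channel alone, 3 with probes above background on all arrays, 6 with the 2 groups alone, and 0 to 5 on leaving out each array. The F test count of 3 became 22 with the block, 11 with array weights, 11 from the liver channel alone and 0 with no background subtraction, processed signals, the deposited table, no filter or probes above background on all arrays; leaving out each array gave 0 to 12. The trend count of 6 became 71 with the block, 92 with array weights, 36 from the liver channel alone, 27 with dose as a rank, 2 with no filter and 0 with processed signals, and 0 to 83 on leaving out each array. Differences near 0 changed sign, and the cause was not tested. With the slide block, the values were Gstm1 0.0797 and Gstm3 0.0835 at 25 mg/kg, Gstk1 0.0628 at 12.5 mg/kg and Gsta2 0.0948, Gsta3 0.11 and Gsta4 0.0275 at 6.25 mg/kg. With no background subtraction, the values were Gstm1 0.0186 at 25 mg/kg and Gsta2 0.00234 and Gsta3 0.0311 at 6.25 mg/kg. With processed signals, the values were Gstk1 -0.11 at 25 mg/kg and Gsta2 0.0116, Gsta3 0.0450 and Gstk1 -0.0298 at 6.25 mg/kg. With the deposited table, the values were Gstk1 -0.0180 and Gstm1 0.0518 at 25 mg/kg, Gstk1 0.0466 at 12.5 mg/kg and Gsta3 0.0924 at 6.25 mg/kg. With the liver channel alone, the values were Gstm1 0.0491 and Gstm3 0.0385 at 25 mg/kg, Gstm1 0.0312 at 12.5 mg/kg and Gsta2 0.0523, Gsta3 0.0663 and Gsta4 0.0399 at 6.25 mg/kg. With array weights, the values were Gstm1 0.0812 and Gstm3 0.000650 at 25 mg/kg and Gsta2 0.00475 and Gsta3 0.0135 at 6.25 mg/kg. On leaving out each array, the ranges that crossed 0 were -0.16 to 0.11 for Gstk1, -0.0720 to 0.16 for Gsta3, -0.0853 to 0.12 for Gstt1, -0.12 to 0.15 for Gstm1, -0.20 to 0.12 for Gstm3 and -0.0551 to 0.26 for Gstm2 at 25 mg/kg. They were -0.16 to 0.13 for Gsta3, -0.15 to 0.19 for Gsta2, -0.0836 to 0.19 for Gstk1 and -0.31 to 0.0117 for Gstm2 at 6.25 mg/kg. They were -0.19 to 0.14 for Gstk1, -0.26 to 0.0211 for Gstm1 and -0.39 to 0.0146 for Gstm3 at 12.5 mg/kg. No paired analysis was possible because the dose groups share no animal numbers. The number of arrays limits these values.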
